A study of Mus musculus with 8 samples.

Results

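Among the CD45+ cells of mouse glioma, 1126 macrophages were set apart by the sum of 2 transcripts, Mmp13 and Vcam1. They made up 10.7% of the 10487 glioma cells that passed the limits on depth and quality (95% exact Clopper-Pearson interval 10.2% to 11.3%), and they are 1126 of the 22597 cells kept from both libraries of the series. A cell had to hold at least 2000 unique molecular identifiers (UMIs, 1 per captured RNA molecule), at least 700 genes and at most 10% mitochondrial UMIs. It had to carry at least 4 UMIs of Csf1r, Fcgr1, Adgre1 and Cd14 together, genes of monocytes and macrophages, and none of the T cell genes Cd3d, Cd3e and Cd3g. Mmp13 and Vcam1 together had to reach 5 UMIs per 10000. Cells were left out at 10 or more UMIs per 10000 of Arg1 or of the interferon-induced genes Rsad2, Ifit1, Ifit2 and Ifit3, at 3 or more of the cycle genes Top2a, Mki67 and Birc5, and at 5 or more UMIs of Krt8, Krt18 and Rhox5. The 4337 macrophages that met every other condition but lay under the limit on Mmp13 and Vcam1 are called the other gated macrophages.

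The CD45+ cells, leukocytes and microglia, came from the tumours of glioma-bearing mice (4 samples) and from the brains of normal mice (4 samples), isolated with magnetic beads and profiled by droplet 3′ RNA sequencing. The labels name no tumour model, age, sex or treatment. Each group was deposited as 1 matrix with no map from cells to samples, so each is 1 pooled library, no test between animals was possible, and intervals cover counting error only. The glioma library held 159689787 UMIs and the control library 124023146. Of the barcodes that passed the limits, 37 occurred in both libraries, 2 of them Mmp13 and Vcam1 macrophages.

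Mmp13 encodes collagenase-3, a secreted enzyme that cleaves fibrillar collagen. Vcam1 encodes a surface adhesion molecule bound by the integrin pair of alpha 4 and beta 1, known on activated endothelium and on resident macrophages of spleen and bone marrow. Both are protein-coding genes; in GENCODE M21 on mm10, Mmp13 lies on chromosome 9 from 7272514 to 7283331 (plus strand) and Vcam1 on chromosome 3 from 116109949 to 116129688 (minus strand). Macrophages in brain tumours derive from microglia, from border-associated macrophages of meninges and vessels, or from blood monocytes, which lose genes such as Ly6c2 and Chil3 as they mature in tissue. Spic, a transcription factor, is known for macrophages of the splenic red pulp, which take up red cells and return iron through the exporter ferroportin, encoded by Slc40a1.

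The values that chose the cells are a description. Mmp13 stood at a median of 5.37 UMIs per 10000 in the Mmp13 and Vcam1 macrophages, with a highest value of 113, and at a median of 0 in the other gated macrophages. Vcam1 stood at a median of 4.35 and a highest value of 50.5, against a median of 0. The sum ran from 5.01 to 115 in the chosen cells, with a median of 10.2, and reached 4.997 in the other gated macrophages. Both transcripts were found in 779 of the 1126 cells (69.2%), Mmp13 without Vcam1 in 195 (17.3%) and Vcam1 without Mmp13 in 152 (13.5%). The median depth was 18105.5 UMIs and 3681.5 genes per cell in the Mmp13 and Vcam1 macrophages, against 11473 UMIs and 2746 genes in the others, and the median mitochondrial share was 5.004% against 3.20%. With every cell thinned to 2000 UMIs, Mmp13 was seen in 58.7% and Vcam1 in 51.7% of the chosen cells, against 6.32% and 5.05% of the others. In glioma T cells, which should lack both and show what free RNA gives, the thinned shares were 1.23% and 0.892%; unthinned they were 5.35% and 3.79%, at a median depth of 7190 UMIs.

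**Figure D1:**
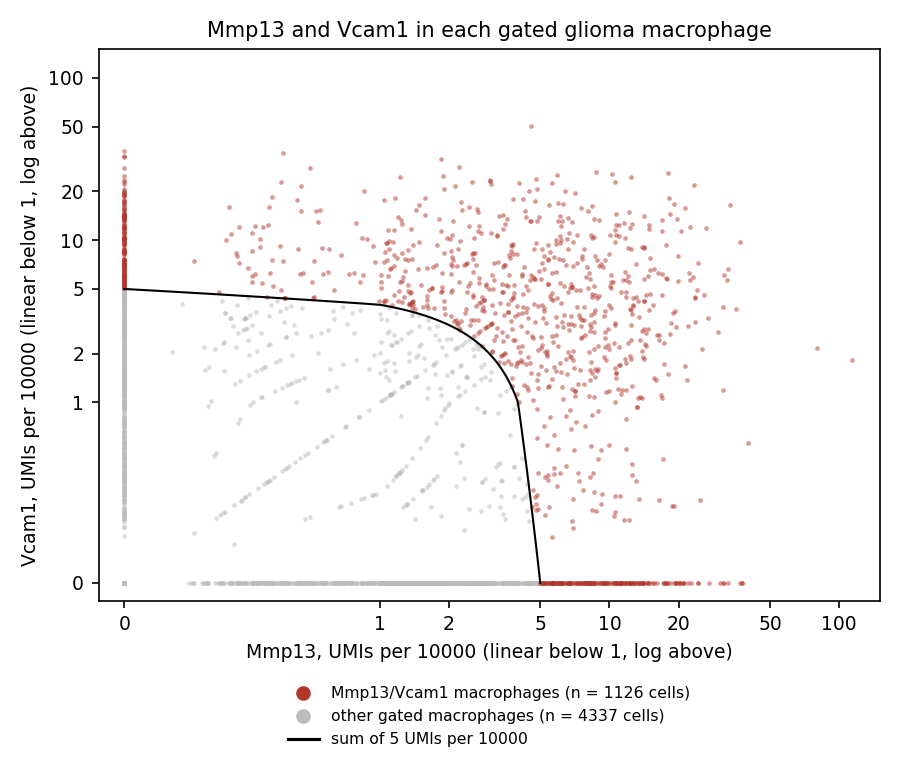
Each point is 1 gated glioma macrophage, placed by its Mmp13 (x axis) and Vcam1 (y axis) in UMIs per 10000, on axes that are linear below 1 and logarithmic above. The 1126 Mmp13 and Vcam1 macrophages lie beyond the line of a sum of 5, and the 195 and 152 cells with 1 of the 2 transcripts lie on the axes.

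The limits left out 449 of 1575 macrophages that had reached 5 UMIs per 10000 of Mmp13 and Vcam1, 255 of them for Arg1, 170 for cycle genes, 54 for interferon genes and 6 for keratin genes, with 36 counted under more than 1. Cells left out for these genes also reached that level. It was reached by 28.1% of the 908 macrophages left out for Arg1 (25.2% to 31.1%), by 33.6% of the 506 left out for cycle genes (29.5% to 37.9%) and by 15.9% of the 340 left out for interferon genes (12.2% to 20.2%), beside 20.6% of the 5463 gated macrophages (19.5% to 21.7%). Over all 800 macrophages left out for Arg1 alone, whatever their Mmp13 and Vcam1, Mmp13 summed to 453 CPM (the UMIs of a gene summed over the cells of a group, scaled to the group's total UMIs) and Vcam1 to 154 CPM.

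In the control library 146 of 11527 gated cells passed the same rule (1.27%, 1.07% to 1.49%). They met it almost wholly through Vcam1. Only 4 of the 146 held an Mmp13 UMI (2.74%, 0.751% to 6.87%), and their summed levels were 912 CPM of Vcam1 and 21.9 CPM of Mmp13. P2ry12, a microglial receptor, stood at 14.8 CPM in the glioma cells and 816 CPM in these control cells, Mrc1 at 379 and 701 CPM, and the endothelial gene Vwf at 9.69 and 95.6 CPM.

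Of the other 2 genes given as markers of these cells, Mrc1 was higher in them, and Ctsk had no stable direction. Mrc1, the mannose receptor CD206, summed to 379 CPM in the Mmp13 and Vcam1 macrophages and 123 CPM in the other gated macrophages, a log2 ratio of 1.63 (1.58 to 1.68). It was seen in 47.2% against 15.0% of cells thinned to 2000 UMIs. Ctsk, a collagen-degrading protease of osteoclasts, summed to 1.16 CPM, 24 UMIs in 24 cells, against 12.3 CPM, 686 UMIs in 52 cells. Of those 686 UMIs, 388 lay in 1 cell and 93.9% in 10 cells. The log2 ratio of Ctsk was -3.38 over all cells, 0.76 among cells of 10000 to 30000 UMIs and 0.44 under a mitochondrial limit of 5%, so that no direction is given for it.

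Ratios were then taken for the 10328 genes with at least 100 UMIs over both sums, leaving out the genes of the rule; their median log2 ratio was 0.07. At least 2-fold higher in the Mmp13 and Vcam1 macrophages were 182 genes (1.76%), and at least 2-fold lower were 279 (2.7%). As the cells were chosen on 2 of their own transcripts, these ratios describe the chosen cells and are not tests.

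The leading gene was Ccl8, a chemokine that draws monocytes and lymphocytes, with 186 CPM against 20.9 CPM (log2 ratio 3.16, 3.06 to 3.25). It came from 371 of the 1126 cells, 10 of which held 27.9% of its UMIs. Spic followed with 21.6 against 2.58 CPM (3.06, 2.79 to 3.35), and Slc40a1, encoding ferroportin, had 35.1 against 5.57 CPM (2.66, 2.46 to 2.85). Spic was seen in 179 cells and Slc40a1 in 190, so that each was found in a minority at this depth. In T cells Spic stood at 0.755 CPM and Slc40a1 at 0.126 CPM, although free RNA held 8.82 and 19.5 CPM of them.

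C6 and Fcna were next by size, although none of the 12 complement genes measured as a list reached 2-fold (median 0.42). C6, of the terminal complement complex, had 12.1 against 1.59 CPM (2.92) and Fcna, encoding the lectin ficolin A, had 8.05 against 1.27 CPM (2.66). Gas6, the ligand of the receptors Axl and Mertk in the uptake of dying cells, had 22.03 against 4.53 CPM (2.28). Pdgfc, a growth factor of mesenchymal cells, had 7.71 against 1.77 CPM (2.12). Mmp2, gelatinase A, had 5.21 against 1.13 CPM (2.20), and Pf4, a platelet and macrophage chemokine, had 554 against 142 CPM (1.96).

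The MHC class I-like gene H2-M2 (2.53), the carbonyl reductase gene Cbr2 (2.16) and the genes Inpp4b (2.38), Spats2 (2.33), Epb41l3 (2.19), Zcchc14 (2.14), Sema6d (2.11), Psd3 (2.08), Bank1 (2.003) and Cttn (1.92) completed the 20 largest log2 ratios with Cd4. Cd4 had 5.45 CPM in the Mmp13 and Vcam1 macrophages and 1.02 CPM in the other gated macrophages (2.41), at 172 CPM in T cells and 16.9 CPM in free RNA. Cd4 was the 1 T cell marker of 6 measured that reached 2-fold, and the 12 markers summed to 62.7 CPM against 73.9 CPM, in groups that both had to lack Cd3 UMIs. Of the 182 higher genes, 130 stayed at least 2-fold higher, and 182 kept their direction, when both groups were held to 10000 to 30000 UMIs and freed of cells rich in neutrophil or dendritic markers (923 against 2167 cells).

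The 250 bases before the start site are printed for Mmp13, which chose the cells, and for Ccl8 and Spic, which led the ratios, with matches to the letters of the AP-1 site (TGANTCA) and of the PU.1 site (GAGGAAG) on either strand in capitals. Sequence and start sites are RefSeq's on GRCm38.p6, in the direction of transcription: Mmp13 at chr9:7272264-7272513 (plus strand), Spic at chr10:88683024-88683273 (minus strand) and Ccl8 at chr11:82114935-82115184 (plus strand).
Mmp13: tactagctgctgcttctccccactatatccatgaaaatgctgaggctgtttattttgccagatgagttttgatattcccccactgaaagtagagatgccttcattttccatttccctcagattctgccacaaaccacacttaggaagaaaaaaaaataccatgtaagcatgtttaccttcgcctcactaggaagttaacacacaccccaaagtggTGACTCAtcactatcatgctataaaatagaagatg
Spic: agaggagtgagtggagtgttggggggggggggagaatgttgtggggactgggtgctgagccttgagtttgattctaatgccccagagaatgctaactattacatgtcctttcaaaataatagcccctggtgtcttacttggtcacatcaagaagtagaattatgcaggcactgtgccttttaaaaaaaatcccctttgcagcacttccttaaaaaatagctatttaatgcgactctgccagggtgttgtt
Ccl8: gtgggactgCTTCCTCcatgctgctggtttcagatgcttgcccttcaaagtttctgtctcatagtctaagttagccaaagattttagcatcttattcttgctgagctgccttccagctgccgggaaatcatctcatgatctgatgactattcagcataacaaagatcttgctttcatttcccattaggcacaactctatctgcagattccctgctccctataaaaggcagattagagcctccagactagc
Mmp13 held the AP-1 letters 35 bases before its start, a match found in 6.75% of 32851 promoter windows of the table. Ccl8 held the PU.1 letters 241 bases before its start, found in 10.6% of windows, and Spic held neither. The letters TGCTGA, part of the site of MAF factors, lay in these 3 windows and in 16.1% of all windows, but in neither of the windows of the 2 starts listed for Mmp12, which led the split by Mmp13 and Vcam1. The PU.1 letters lay 87 bases before a start of Mmp12, and the AP-1 letters 44 bases before its other start. A match is a description of letters, not of binding.

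Among the genes lower in the Mmp13 and Vcam1 macrophages were those of recent monocytes, cells newly come from blood. Of 16 recent monocyte genes, 12 were at least 2-fold lower and 0 higher, with a median log2 ratio of -2.66. Chil3, a chitinase-like protein of monocytes and alternatively activated macrophages, had 51.1 against 686 CPM (-3.75). S100a4 had 38.1 against 440.2 CPM (-3.53), Ly6c2 had 20.97 against 159 CPM (-2.92) and Plac8 had 154 against 994 CPM (-2.69). Ccr2, the receptor that leads monocytes out of marrow, had 81.5 against 200.4 CPM (-1.30). Across all alternatives Chil3 stayed between -5.04 and -3.08 and Ly6c2 between -3.36 and -2.55.

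The 12 smallest ratios of all included S100a9, counted above among the lower recent monocyte genes, and no other gene of that list. They were those of Stfa2, Lrg1, BC100530, Cldn1, Mcpt2, Mcpt1, Ngp, Stfa1, Stfa2l1, Il1f9, S100a9 and Wfdc21, from -3.84 for Wfdc21 to -5.35 for Lrg1, beside Stfa2, which had 0 UMIs in the Mmp13 and Vcam1 macrophages. Several are genes of neutrophils or mast cells, and the UMIs of some lay in few of the other gated macrophages. Ngp, a neutrophil granule gene, had 73.0% of its UMIs there in 1 cell, and all 120 UMIs of the mast cell protease gene Mcpt2 lay in 4 cells. Others were spread over more of these macrophages, S100a9 over 662, Wfdc21 over 234, Lrg1 over 214, Stfa2l1 over 169 and Il1f9 over 143. Directions did not hold for 4 of the 12. Without cells rich in neutrophil or dendritic markers Stfa2 turned to 1.29 and Stfa1 to 1.82, and against macrophages with no Mmp13 or Vcam1 UMI Mcpt2 turned to 0.59 and Mcpt1 to 2.91. S100a9 came to -0.23 without marker-rich cells and within 10000 to 30000 UMIs. Marker-rich cells were left out by S100a8 and S100a9, or by Plet1, Ccl17, Ccl22 and Ccr7. A smaller difference in S100a9 thus follows from that choice. Of 8 neutrophil markers measured, 7 were at least 2-fold lower, with sums over the 10 markers of 134 CPM against 1391 CPM, and Camp and Ly6g at 0 in the Mmp13 and Vcam1 macrophages. Of 11 dendritic cell markers, 8 were lower, with sums of 72.1 CPM against 268 CPM. Without cells rich in such markers, 37 and 531, and within 10000 to 30000 UMIs, 95 genes were at least 2-fold lower in place of 279. That count took only the 9783 genes tested in those cells. Of the 279 genes themselves, 152 stayed at least 2-fold lower there and 272 kept their direction.

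Of 11 border-associated macrophage markers measured, 6 were at least 2-fold higher and 0 lower, with a median log2 ratio of 1.28. They included Igfbp4 (1.73), the scavenger receptor gene Stab1 (1.32) and Ms4a7 (1.28), while F13a1 had 45.5 against 56.9 CPM (-0.32). The defining markers Cd209f and Cd209g were at 0 UMIs, Cd163 at 0.771 CPM and Lyve1 at 0.482 CPM, levels below those of free RNA. Of 15 tissue-resident macrophage genes 6 were higher and 0 lower (median 0.83); among the higher were Cd81 (1.498), Selenop (1.28) and Maf (1.13), while Trem2 (-0.28) and Pltp (0.04) were among the 9 that stayed within 2-fold. Microglia markers gave 0 higher and 2 lower of 10 (median -0.12), with 11.2 against 12.2 CPM of Tmem119. The 2 lower were Sparc (-2.16) and Siglech (-1.03). With free RNA subtracted neither kept UMIs in either group. Both then came to 1.43, a value set by the 0.5 UMIs added and the group totals. The median of the list lay between -0.40 and 0.90 over the alternatives. Free RNA held 2260 CPM of these markers, against sums of 254 CPM in the Mmp13 and Vcam1 macrophages and 269.6 CPM in the others, so that no direction is given for them.

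In iron and heme handling 4 of 20 genes were higher and 2 lower (median 0.59). Beside Spic and Slc40a1 these were Cp, the copper oxidase that serves iron export (1.83), and Hebp1 (1.07), while Hmox1, which breaks down heme, had 489.9 against 357 CPM (0.45). Of 21 chemokine genes, 5 were higher, namely Ccl8, Pf4, Ccl12 (1.73), Ccl7 (1.57) and Ppbp (1.30). The 3 lower were Ccl17 (-2.64), Ccl4 (-1.29) and Ccl3 (-1.15). Of 30 growth factors and cytokines, 6 were higher, with Pdgfc, Igf1 (1.74), Tgfb3 (1.45), Gdf15 (1.44), the anti-inflammatory cytokine gene Il10 (1.29) and Pdgfb (1.12), and 2 were lower, Inhba (-1.33) and Csf1 (-1.22). Of 23 adhesion genes measured, 2 were higher, the integrin subunit Itga9 (1.78) and Cd81, and 1 was lower, the integrin subunit Itgb7 (-1.12), while Itga4, which encodes a subunit of the integrin that binds Vcam1, had 80.5 against 91.8 CPM (-0.19).

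Of the enzymes that act on matrix, 2 of 18 measured besides Mmp13 were at least 2-fold higher, Mmp2 and Adamdec1 (1.75), and 2 were lower, Mmp8 (-1.45) and the inhibitor Timp1 (-1.38). Mmp14, a membrane protease that can activate pro-Mmp13, had 288 against 166 CPM (0.80). Osteoclast genes gave 0 higher and 2 lower of 15, Ctsk and Spp1 (-1.30), with a median of 0.30 and a mean of -0.05. Of these, Ctsk had no stable direction, as given above. MHC class II gave 0 higher and 1 lower of 10 (median -0.19), and glycolysis and hypoxia 0 and 2 of 31 (median 0.06). Immunosuppressive mediators gave 1 higher and 3 lower of 24 (median -0.19), with 165 against 188 CPM of Cd274, which encodes PD-L1. Type I interferon genes, 4 of which were part of the rule and left out, gave 0 higher and 4 lower of 25 (median -0.57).

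**Figure D2:**
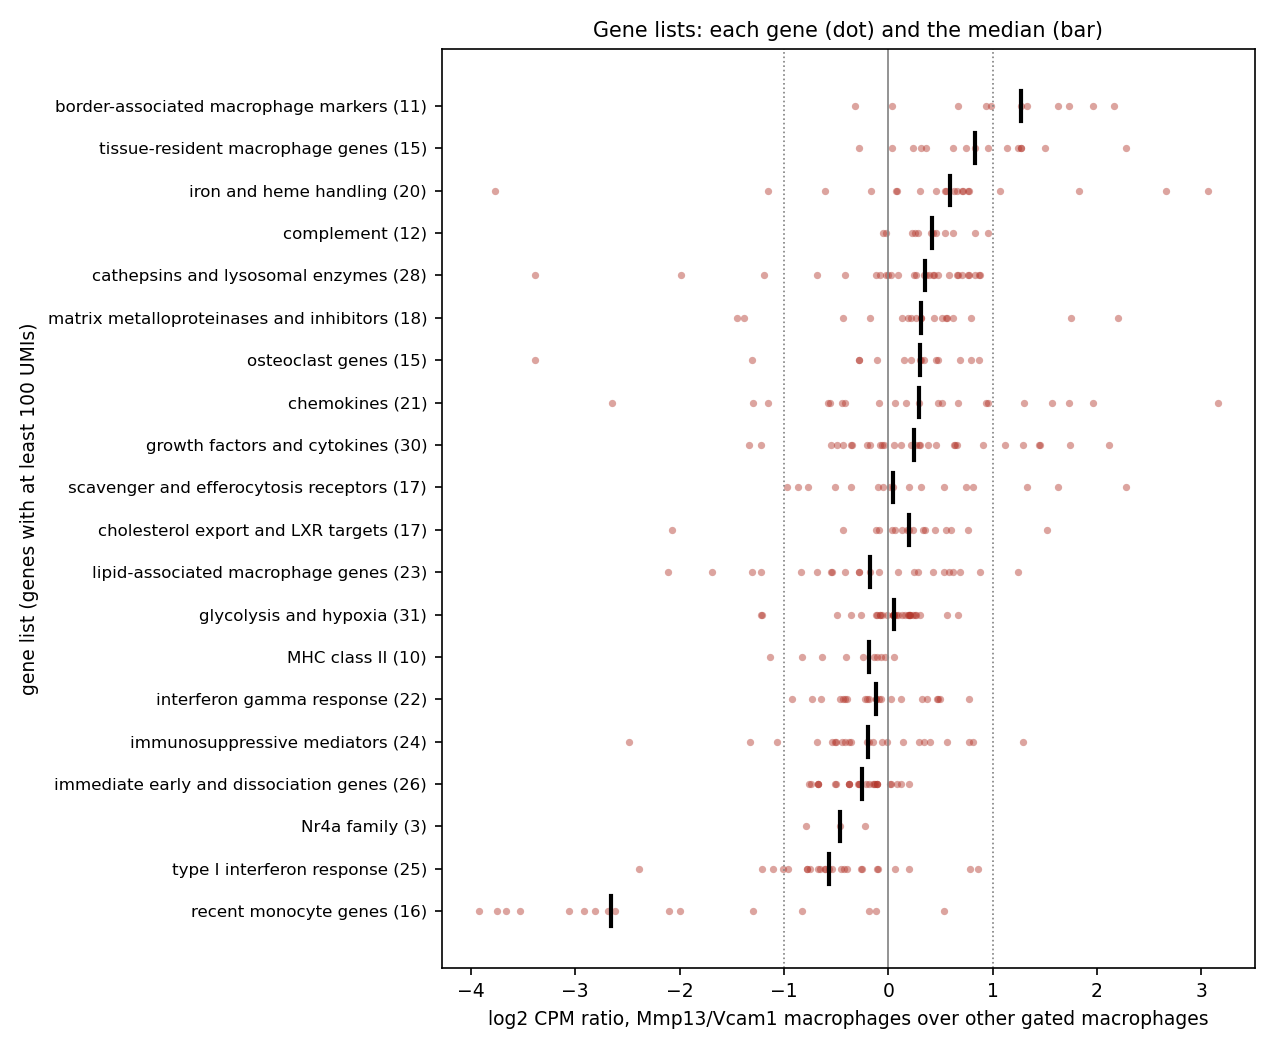
Log2 CPM ratios of the Mmp13 and Vcam1 macrophages over the other gated macrophages (x axis) for 20 gene lists, with 1 dot per gene of at least 100 UMIs, a black bar at the median and dotted lines at 2-fold. The medians run from 1.28 for border-associated macrophage markers to -2.66 for recent monocyte genes.

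Nr4a2, the transcription factor in the title of the study, summed to 65.6 CPM in the Mmp13 and Vcam1 macrophages and 113 CPM in the other gated macrophages, a log2 ratio of -0.79 (-0.88 to -0.71) that does not reach 2-fold. Nr4a1 had 80.9 against 111 CPM (-0.46) and Nr4a3 74.8 against 87.5 CPM (-0.23). Free RNA of the glioma library held 62.5 CPM of Nr4a2 and T cells 65.4 CPM. Immediate early and dissociation genes, which include genes induced during tissue handling, stood at a median log2 ratio of -0.25, none of the 26 having reached 2-fold; their part in the level of Nr4a2 was not tested.

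The limit of 5 UMIs per 10000 cut through a gradient. Macrophages just outside it, at 2.5 to 5 (492 cells), had 246.6 CPM of Mrc1, 65.2 CPM of Ccl8, 7.27 CPM of Spic and 47.9 CPM of Ly6c2. Those just inside, at 5 to 7.5 (331 cells), had 292 CPM of Mrc1, 88.2 CPM of Ccl8, 11.9 CPM of Spic and 30.3 CPM of Ly6c2. The ends of the range lay farther apart. Ccl8 ran from 9.01 CPM in the 2823 cells with neither transcript to 314 CPM in the 147 cells at 20 or more, and Ly6c2 from 216 to 6.10 CPM over the same classes. Nr4a2 stood at 129 CPM in cells with neither transcript, 74.8 CPM at 2.5 to 5 and 69.6 CPM at 20 or more.

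Depth and mitochondrial share moved with these classes, the median depth from 9801 UMIs at 0 to 18605 UMIs at 7.5 to 10 and 16331 UMIs at 20 or more, and the median mitochondrial share from 2.97% to 5.51%. Within 10000 to 30000 UMIs, where class medians lay between 14274.5 and 18802.5 UMIs, Ccl8 ran from 11.7 to 329 CPM and Ly6c2 from 132 to 4.85 CPM. Chil3 stood at 452 CPM in such cells with neither transcript and at 987 CPM over all depths. The part of the mitochondrial share was not tested.

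**Figure D3:**
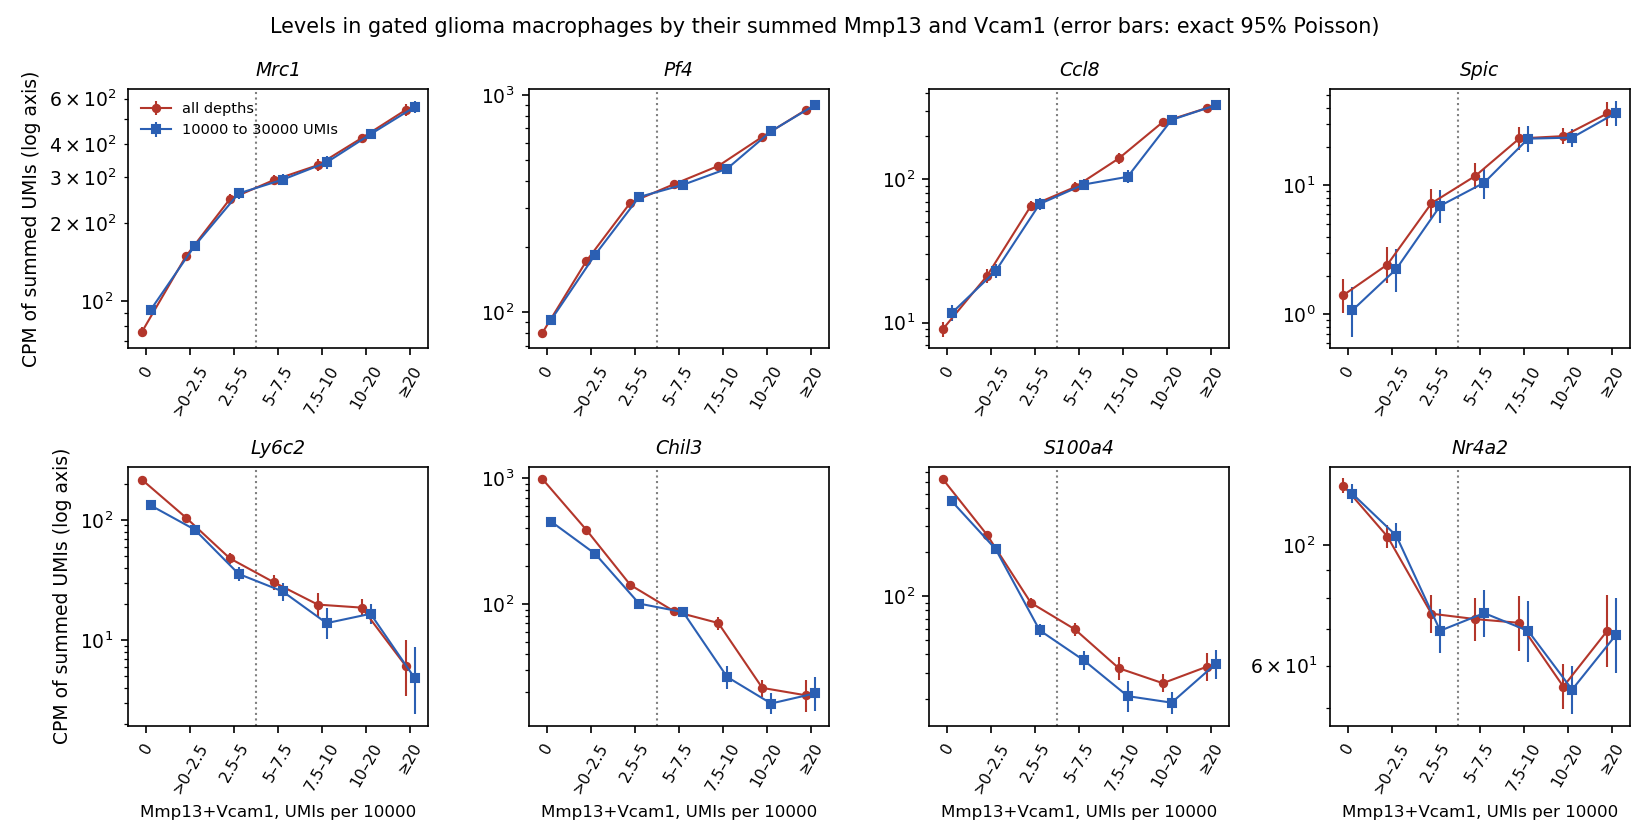
Summed CPM on a log axis (y) of 8 genes in gated glioma macrophages, by classes of summed Mmp13 and Vcam1 in UMIs per 10000 (x), at all depths (red circles) and within 10000 to 30000 UMIs (blue squares), with exact 95% Poisson intervals; the dotted line marks the limit of 5. Mrc1, Pf4, Ccl8 and Spic are higher, and Ly6c2 and Chil3 lower, in the higher classes on both sides of the limit.

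The 1126 cells were also set beside like macrophages of the same library. The groups chosen by Cxcl9, by Inhba and Nrg1, and by Ccl8, Hes1 and Cx3cr1 were drawn from the other gated macrophages. Cells past the limit on Mmp13 and Vcam1 were thus left out of them. The Mmp13 and Vcam1 macrophages themselves held 1507 CPM of Cxcl9, against 3100 CPM in the Cxcl9 group. Against macrophages with 10 or more UMIs per 10000 of Cxcl9 (1099 cells), Ccl8 had 186 against 36.8 CPM (log2 ratio 2.34), Spic 21.6 against 1.65 CPM (3.69) and Slc40a1 35.1 against 2.95 CPM (3.56). Over macrophages with 5 or more UMIs per 10000 of Inhba and Nrg1 (852 cells), the log2 ratios were 4.82 for Ccl8, 3.13 for Spic, 3.83 for Slc40a1 and -4.09 for Chil3. Nr4a2 had 65.6 CPM in the Mmp13 and Vcam1 macrophages and 172 CPM in those Inhba and Nrg1 macrophages (-1.39). Macrophages chosen by Ccl8, Hes1 and Cx3cr1 (95 cells) had more Ccl8, by that choice, but 3.20 CPM of Spic. Log2 ratios over them were 2.58 for Spic and 3.62 for H2-M2, but 1.01 for C6 (0.046 to 2.44). That group held 1248929 UMIs in all, so its levels of these 3 genes rest on few UMIs. Mrc1 stood at 379 CPM in the Mmp13 and Vcam1 macrophages, 372 CPM in macrophages left out for Arg1, 222 CPM in those 95 cells and 106 to 115 CPM in the Cxcl9 macrophages and the Inhba and Nrg1 macrophages. The comparator groups share cells, 201 between the Cxcl9 group and the Inhba and Nrg1 group.

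Against the 49 border-associated macrophage-like cells of the control library, the Mmp13 and Vcam1 macrophages had 559 against 589.9 CPM of Vcam1. Mmp13 stood at 649 against 8.23 CPM, the control value resting on 3 UMIs. Both genes chose the glioma cells and not the control cells, so these levels describe that choice. Spic stood at 21.6 against 32.9 CPM and Ccl8 at 186 against 57.6 CPM. Slc40a1 was lower in the glioma macrophages, at 35.1 against 209 CPM, as was Gas6, at 22.03 against 477 CPM. Cd163, at 0.771 against 299 CPM, and Cbr2, at 3.37 against 510.4 CPM, were among the genes that chose the control cells. C6 had 12.1 CPM and H2-M2 34.5 CPM in the glioma macrophages, while both had 0 UMIs in the control cells, which were few. The group and the library are the same thing here, so that tumour and library cannot be told apart. In the 11013 control microglia Mmp13 stood at 0.344 CPM and Vcam1 at 23.6 CPM.

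The 1126 cells differed among themselves in the transcripts they held. Split by which of the 2 transcripts they held, the 195 cells with Mmp13 alone and the 152 with Vcam1 alone differed at least 2-fold in 188 of 5337 genes, 78 higher with Mmp13 alone (1.46%) and 110 lower (2.06%), with a median log2 ratio of -0.08. Their depths were near each other, with medians of 16200.0 and 15656.5 UMIs, and mitochondrial shares of 4.06% and 5.10%. A cell with Mmp13 alone can still make Vcam1 below the depth of detection. The split rests on the 2 genes that chose the cells, so the ratios are descriptions.

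Mmp12 had the largest ratio of Mmp13 alone over Vcam1 alone. Mmp12, macrophage elastase, which lies near Mmp13 on chromosome 9, had 946 CPM in cells with Mmp13 alone, 572 CPM in cells with both and 56.2 CPM in cells with Vcam1 alone, a log2 ratio of Mmp13 alone over Vcam1 alone of 4.07 (3.82 to 4.33). Cxcl3, a ligand of the neutrophil receptor Cxcr2, had 81.1 against 7.08 CPM (3.48), with 25.9% of its UMIs in 1 cell, and its relative Cxcl2 had 1187 against 231 CPM (2.36). Of the 17 chemokine genes measured in the split, 3 were higher with Mmp13 alone and 5 lower (median 0.11). Tnfrsf9, the costimulatory receptor 4-1BB, had 71.5 against 6.24 CPM (3.47). Ifitm1 had 1696 against 155 CPM (3.45) and Nos2, the inducible nitric oxide synthase, 35.3 against 4.99 CPM (2.77). Atp2b4 (2.46) and Klrb1b (2.45) completed the 8 largest. Over the alternatives tried, the log2 ratio of Mmp12 lay between 3.68 and 5.69.

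Ccl8, Spic, Slc40a1 and Gas6, among the 20 largest ratios of the group, were higher in cells with Vcam1 alone. Ccl8 had 13.04 CPM in cells with Mmp13 alone, 194 CPM in cells with both and 363 CPM in cells with Vcam1 alone (log2 ratio -4.78, -5.29 to -4.35). Spic had 2.23 against 39.1 CPM (-4.04), Slc40a1 3.18 against 43.3 CPM (-3.70) and Gas6 4.45 against 58.7 CPM (-3.67). Ccl7, a ligand of Ccr2, had 16.5 against 154 CPM (-3.21) and Selenop, a selenium transport protein, 149 against 826 CPM (-2.47). Pmp22 (-4.83), Fcrls (-4.11) and Ighm (-3.24) were also among the 8 smallest. Fcrls, a microglial gene, had 40.2% of its UMIs of the Vcam1-alone cells in 1 cell and Pmp22 26.8%, and their log2 ratios between all Mmp13 and Vcam1 macrophages and the others were -0.13 and -0.15.

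For 4 of these genes the cells with Mmp13 alone stood near the other gated macrophages. Ccl8 was 13.04 against 20.9 CPM, Spic 2.23 against 2.58 CPM, Gas6 4.45 against 4.53 CPM and Slc40a1 3.18 against 5.57 CPM. Mrc1 differed less across the split, with 288 CPM in cells with Mmp13 alone, 385 CPM with both, 461 CPM with Vcam1 alone and 123 CPM in the other gated macrophages. Pf4 had 537 CPM with Mmp13 alone, 588 CPM with both and 361 CPM with Vcam1 alone, against 142 CPM in the other gated macrophages. Low Ly6c2 and Chil3 were shared too: Ly6c2 had 27.3 CPM with Mmp13 alone and 30.8 CPM with Vcam1 alone, against 159 CPM in the other gated macrophages, and Chil3 had 27.7 and 30.8 CPM against 686 CPM.

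**Figure D4:**
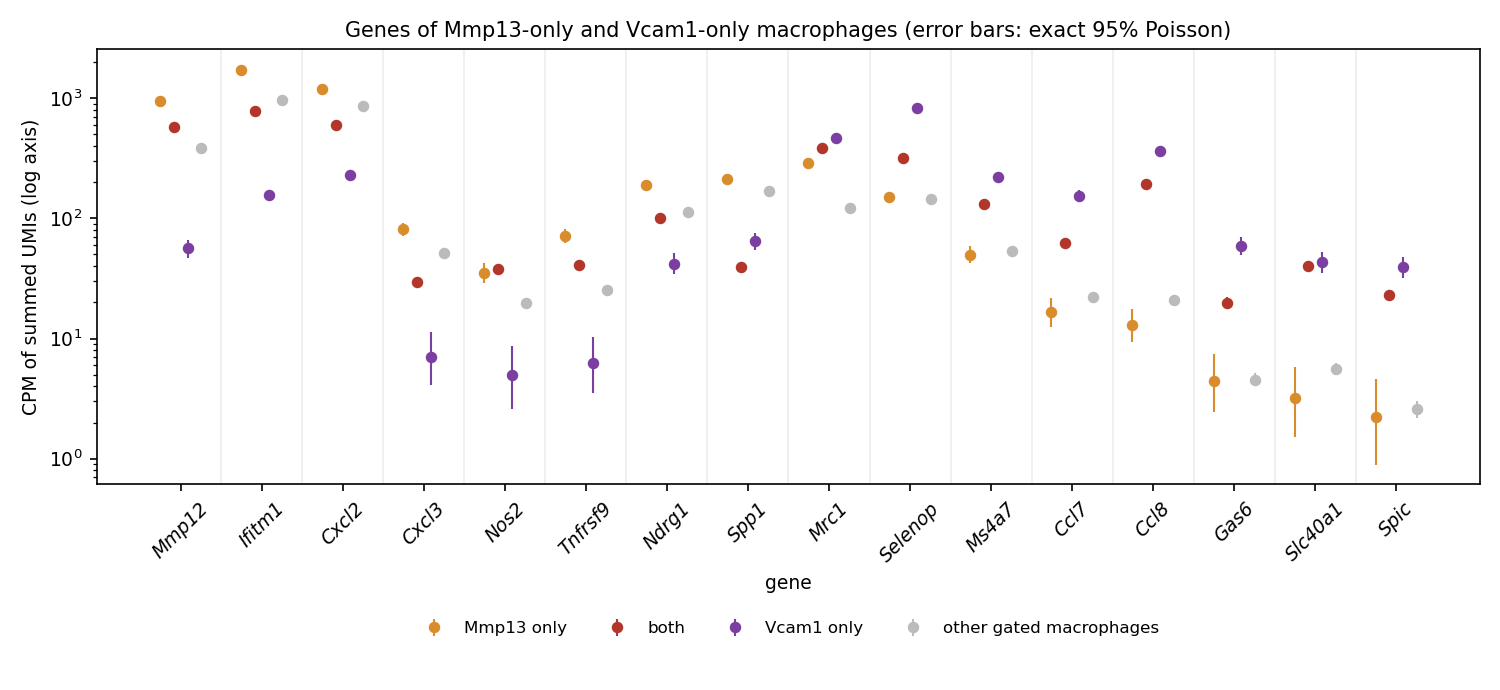
Summed CPM on a log axis (y) of 16 genes (x) in cells with Mmp13 alone (orange), both transcripts (red) and Vcam1 alone (purple), and in the other gated macrophages (grey), with exact 95% Poisson intervals. Mmp12 stands at 946, 572 and 56.2 CPM in the first 3 groups, and Ccl8 at 13.04, 194 and 363 CPM.

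Some gene groups also differed across this split. Of 28 glycolysis and hypoxia genes measured, 4 were at least 2-fold higher with Mmp13 alone and 0 lower, with a median log2 ratio of 0.77. They were Ndrg1 (188.9 against 42.0 CPM, 2.16), Ero1l (1.80), Bnip3 (1.78) and the glycolytic kinase gene Pgk1 (1.21). Of 12 recent monocyte genes 5 were higher and 0 lower (median 0.17). Fn1 (1.68) and Ccr2 (1.22) were among the higher, while Ly6c2 (-0.17) and Chil3 (-0.16) hardly differed. Of 15 tissue-resident macrophage genes 0 were higher and 6 lower (median -0.87), among them Ms4a7 (-2.14). Of 12 genes of cholesterol export 0 were higher and 4 lower (median -0.71), including the LXR gene Nr1h3 (-1.41) and Apoe (-1.19). Of 4 microglia markers measured, 3 were lower (median -1.79). The lowest was Fcrls, with 8 UMIs in the cells with Mmp13 alone, and free RNA held 2260 CPM of the whole marker list. MHC class II genes gave 0 higher and 0 lower of 8 (median 0.10). Nr4a2 had 93.5 CPM with Mmp13 alone and 52.4 CPM with Vcam1 alone (0.83, 0.53 to 1.15), short of 2-fold.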

How the data were processed

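Droplet libraries of CD45+ cells were measured. Per the submitters' processing notes the tools were Seurat 3, STAR (version not given in the sources used here) and Cell Ranger 3.0.2, with the builds GRCh38 and mm10, all gene identifiers being mouse Ensembl ones. The authors deposited raw counts of UMIs per gene and barcode, 1 matrix per group of 4 samples, with 31053 genes and 6794880 barcodes, unfiltered. The 1126 cells were found by the stated rule. UMIs were summed per group and given as CPM; log2 ratios had 0.5 UMIs added to each sum. Intervals are 95% and exact (Clopper-Pearson, Poisson, conditional binomial), and no test was run, as each group is 1 library. UMIs are molecules, but cells of 1 library share their source, so depth sets counting error only.

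Free RNA was read from barcodes ranked 45000 to 90000 by UMIs. Doublets were kept in the main values: Scrublet's automatic threshold marked 0 of 10487 cells, and removal of the 880 highest scores (62 and 281 of the cells compared) was an alternative. Ratio and interval code was checked on simulated data. Gene identities matched GENCODE M21 for 30934 genes. Python 3.11.15, numpy 2.4.6, scipy 1.17.1, pandas 2.3.3 and scanpy 1.11.5 were used.

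The cells and the gene lists were chosen with earlier results of these data known. Named genes are the markers, the 20 largest and 12 smallest ratios, the 8 largest and smallest of the split, and the extremes of each list, leaving out genes of the rule and ribosomal, mitochondrial and unnamed genes. Further genes, such as Ly6c2, S100a4, Ccr2, Selenop and Ndrg1, were chosen after their values were seen. Alternatives concerned depth, mitochondrial limit, doublets, both thresholds, scaling, weighting of cells, the UMI minimum and free RNA.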

Additional observations from a re-analysis of the deposited data

How the results depend on the processing

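The number of Mmp13 and Vcam1 macrophages moved to 561 under a mitochondrial limit of 5% and to 579 under a limit of 10 UMIs per 10000 of Mmp13 and Vcam1. Genes at least 2-fold higher moved to 413 against macrophages with no Mmp13 or Vcam1 UMI, 340 as a mean over cells, 358 with a minimum of 20 UMIs and 1448 with a minimum of 1. Genes at least 2-fold lower moved to 562 and 1331 with these minimums, and to 177 within 10000 to 30000 UMIs. They moved to 95 there without cells rich in neutrophil or dendritic markers, among the 9783 genes tested in those cells. Of the 279 lower genes of the main comparison, 152 stayed at least 2-fold lower there and 272 kept their direction. The limits on depth and on marker-rich cells were chosen after seeing the data. Genes of the Mmp13-alone against Vcam1-alone split moved to 120 under the 5% limit and to 612 and 3149 with the minimums. The lower minimums test more genes of few UMIs; the cause of the other moves was not tested. Of the genes and lists named or tried, these reversed. Counted were changes of sign in genes at least 2-fold apart and in the larger list medians. Smaller ratios and medians that changed sign, such as the ratio of Fcrls, are not listed. Ctsk turned to 0.44 under the 5% limit, 0.76 within 10000 to 30000 UMIs and 0.85 there without marker-rich cells. Some of these rest on few UMIs, the Mmp13 and Vcam1 macrophages having 0 of Stfa2, 6 of Stfa1, 1 of Mcpt2 and 2 of Mcpt1. Without marker-rich cells Stfa2 turned to 1.29 (1.01 also within that depth), Stfa1 to 1.82 (1.90) and, within that depth, Ccr7 to 0.098. Ccr7 was among the genes by which those cells were left out. Against macrophages with no Mmp13 or Vcam1 UMI, Mcpt2 turned to 0.59 and Mcpt1 to 2.91. With free RNA subtracted Sparc and Siglech both turned to 1.43, Gzma turned to 0.84 without the highest Scrublet scores and 0.049 within 10000 to 30000 UMIs, the median of endothelial markers to -0.23 with a minimum of 20 UMIs, and the split median of the Nr4a family to -0.097 under the 5% limit. In all, 36 of 49 counts, 869 of 931 list medians and 2371 of 3508 ratios of single genes were labelled as little moved. For a single gene this means that the alternative lay inside the counting interval of its main ratio, which is wide at few UMIs. Counts and list medians were judged by a set size of change. No paired analysis was possible because each group is 1 library whose barcodes are not tied to samples. Genes of under 100 UMIs were beyond this depth.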
